A study of Mus musculus with 15 samples.

Results

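Among Rpl5 mutant erythroid progenitors, the libraries that the submitters had labelled low-yield were compared with the mutant libraries that did not carry that label. The 3 libraries titled as low-yield mutants of the second group of mice were set against the 3 titled simply as mutants of the same group, 6 of the 15 libraries in the series. All 6 came from fetal liver of embryos at stage E12.5 on the 129S6/SvEvTac background. The authors' sample information gives the same genotype to both labels, Rpl5plusSkax23Jus, a name that pairs a plus allele with the Skax23Jus allele. The 3 wildtype libraries of the second group, same tissue, stage and strain, served as the reference, and their molecule, like that of the 6 mutant libraries, is given as total RNA. The first group of mice, also at stage E12.5 and with 3 wildtype and 3 mutant libraries of polyA RNA, was used only to choose genes. The labels do not define low-yield, do not say how the progenitors were isolated, and do not say whether embryos were pooled or whether replicates were separate embryos. P-values therefore measure the spread between these libraries, which may be technical. The contrast asks whether mutants of 1 genotype that were set apart by yield also differed in their transcripts.

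The Rpl5 protein belongs to the large ribosomal subunit and, with Rpl11 and 5S ribosomal RNA, binds and blocks Mdm2, the ubiquitin ligase that keeps p53 low. When ribosome assembly is disturbed, p53 accumulates and switches on genes of growth arrest, such as Cdkn1a, and of cell death, such as Bbc3. In the fetal liver, erythroid progenitors divide and mature towards haemoglobin-making cells, and they descend from precursors that also give rise to megakaryocytes and granulocytes.

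The low-yield libraries had more RNA of the megakaryocyte-lineage integrin Itga2b, of the sphingosine-1-phosphate exporter Spns2 and of the embryonic globin Hbb-bh1 than any of the other mutant libraries. They had less RNA of the desaturase Scd1, of several p53 targets (Zmat3, Eda2r, Ccng1 and Bbc3) and of a set of short noncoding RNAs (Rpph1, Rmrp, Rn7sk and the 7SL RNAs). No gene passed the threshold in edgeR's quasi-likelihood test with Benjamini-Hochberg adjustment (adjusted p under 0.05). The values below are therefore described gene by gene, and the words higher and lower compare levels without a call unless a test is named.

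The total count of the mutant libraries was 24954324 to 38972058 and that of the low-yield libraries 30897179 to 41316995, and 17224 to 19394 genes were detected in each library of the second group. Levels are given in CPM, each count as a share of the TMM-scaled total of its library, which can be compared between libraries of a gene but not between genes, since they are not divided by length. Pearson's r of log2 CPM over the tested genes was 0.980 to 0.984 among low-yield libraries, 0.970 to 0.980 among the others and 0.974 to 0.984 across the labels. The first principal component of the 6 libraries (33.1% of the variance) spread the mutant libraries, with mutant replicate 1 at 56.7, mutant replicate 2 at -46.8 and mutant replicate 3 at 2.14, and the low-yield libraries lay between them at -17.3 to 3.90. Low-yield replicate 3 stood apart from low-yield replicates 1 and 2. On the second component (22.6%), replicates 1 and 2 were at 35.6 and 32.1 and replicate 3 was at -7.08, between mutant replicate 3 at -5.23 and mutant replicates 1 and 2 at -27.7 and -27.6. It was also the low-yield library with Y-linked transcripts, as was mutant replicate 2 and wildtype replicate 2, so each group held 1 such library. Several results that shift with low-yield replicate 3, though not all, are given with and without it.

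In the labelled cell type, the erythroid factor Gata1 was at 348 to 407 CPM in the 6 mutant libraries, the erythroid factor Klf1 at 491 to 629 and the progenitor receptor Kit at 226 to 276. Gata1 differed by a log2 fold change of 0.00 (SE 0.08) between the labels, Klf1 by -0.13 (SE 0.08) and Kit by 0.06 (SE 0.10). The summed level of 8 tested macrophage markers was 52.3 to 64.2 CPM in these libraries. Of 18 macrophage markers listed, the other 10, C1qa among them, did not pass the filter on low counts. Hepatocyte markers were present at low levels, with a summed CPM of 20.7, 78.8 and 41.6 in mutant replicates 1, 2 and 3 and 77.6, 71.2 and 70.0 in the low-yield replicates. Their part in the results below was not tested. In bulk RNA, fewer cells of a type and less RNA per cell cannot be told apart.

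Rpl5 itself did not separate the labels. Its level was 232, 248 and 248 CPM in the mutant libraries and 243, 219 and 278 CPM in the low-yield libraries, against 324, 303 and 374 CPM in wildtype. Both mutant groups lay below wildtype and overlapped each other. The log2 fold change of low-yield over other mutants was 0.02 (SE 0.10, 95% interval -0.19 to 0.23).

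Of 15024 genes tested, edgeR called 0 (0%), and the smallest adjusted p was 0.819, that of Itga2b. At an unadjusted p under 0.05, edgeR gave 480 genes (3.19%), 262 higher (1.74%) and 218 lower (1.45%) in the low-yield libraries. CPM did not overlap between the groups of 3 for 611 genes that were higher (4.07%) and 623 that were lower (4.15%). In direction alone, 7672 of the 15024 genes were higher and 7352 lower. These values over all genes are the background for the counts of each gene list below. DESeq2 called 6 of 23886 genes (0.0251%), and limma's voom with quality weights called 4 of 15024 (0.0266%). The DESeq2 calls were Itga2b, Hbb-bh1 and Lrrc75aos2, which were higher, and Scd1, Rpph1 and Scarna10, which were lower. Those of voom were Itga2b, Spns2, Lrrc75aos2 and Sirpa, all higher. The median SE of a log2 fold change was 0.162 and the median absolute log2 fold change was 0.11. Without low-yield replicate 3, edgeR called 22 of 15542 genes (0.142%), 4 higher and 18 lower, of which 12 were histone genes. At an unadjusted p under 0.05 it then gave 487 genes higher (3.13%) and 460 lower (2.96%).

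**Figure D1:**
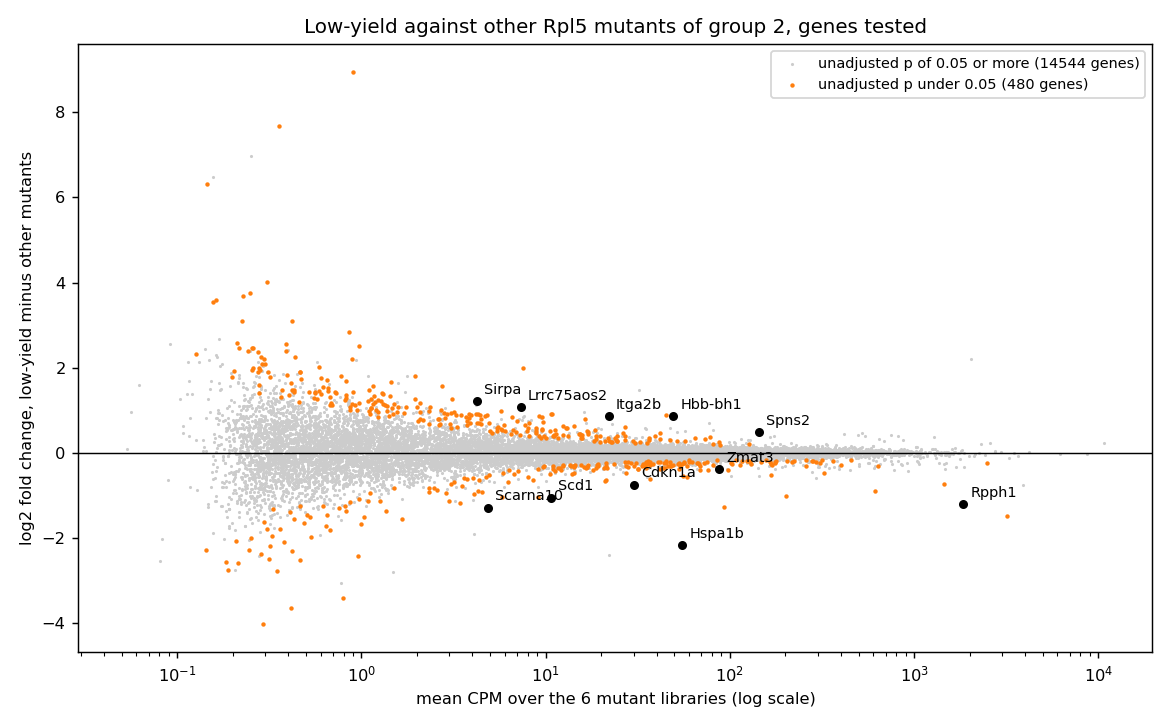
Log2 fold change of low-yield over other Rpl5 mutants (y axis) against the mean CPM over the 6 libraries (x axis, log scale) for the 15024 genes tested, 1 point per gene. The 480 genes at an unadjusted p under 0.05 in edgeR are in orange and the labelled genes in black; 6 of the labelled genes lie below 0, Hspa1b the lowest of them at -2.18, and 5 lie above it.

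Itga2b encodes the alpha chain of the fibrinogen receptor of platelets and marks early blood progenitors and megakaryocytes. It lies at chr11:102453297-102470122 of GRCm38, on the minus strand, and overlaps 1 other annotated gene of that strand. Its level was 16.9, 15.4 and 14.7 CPM in the mutant libraries and 34.0, 29.7 and 21.6 CPM in the low-yield libraries. Every low-yield library lay above every other mutant library, and low-yield replicate 3 was the lowest of its group. The log2 fold change was 0.86 (SE 0.15, 95% interval 0.53 to 1.18, unadjusted p 5.45e-05). The adjusted p was 0.819 with edgeR on all libraries, 0.00293 with DESeq2 and 0.0317 with voom. It was 0.00443 with edgeR without low-yield replicate 3, whereas edgeR called 0 genes with any other single library left out. Wildtype libraries were at 9.20, 9.82 and 8.62 CPM, so that both mutant groups lay above them. Against these shared wildtype libraries the log2 fold change was 0.77 in the mutants and 1.62 in the low-yield mutants. The 250 bases before the RefSeq start of Itga2b are shown, as this gene had the smallest p, from GRCm38.p6, chr11:102469884-102470133, minus strand. RefSeq starts the gene downstream of the GENCODE end given above, so most of this window lies within the GENCODE gene. Capitals mark AGGAAG, which holds the core bound by ETS-family factors such as Fli1 and was searched on both strands.
Itga2b promoter: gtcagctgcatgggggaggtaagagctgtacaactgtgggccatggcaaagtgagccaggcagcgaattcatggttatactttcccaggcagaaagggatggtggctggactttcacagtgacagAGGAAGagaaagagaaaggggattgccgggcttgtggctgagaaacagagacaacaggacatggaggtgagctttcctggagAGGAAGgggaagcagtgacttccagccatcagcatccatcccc
AGGAAG occurred in 29.5% of the 32851 promoter windows of this length, and a match is a description, not a bound site. Of the megakaryocyte genes described here that had a window, Itga2b held 2 matches, Pf4 held 1 and Plek held 0.

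Of 25 megakaryocyte and platelet markers, 20 passed the filter, 18 of them higher in the low-yield libraries, with a median log2 fold change of 0.59 beside 0.00 over all genes. At an unadjusted p under 0.05, 5 were higher and 0 lower. Pf4, the chemokine of platelet granules, was at 0, 0.193 and 0.620 CPM in the mutant libraries and 0.895, 0.913 and 3.16 CPM in the low-yield libraries. The groups did not overlap, and low-yield replicate 3 was the highest. Fli1, an ETS factor of megakaryocytes, was at 5.34, 7.64 and 5.09 CPM against 9.85, 10.8 and 7.33 CPM, overlapping through low-yield replicate 3 and mutant replicate 2 (log2 fold change 0.64, SE 0.21, unadjusted p 0.00888). Plek, a signalling protein of platelets, was at 0.739, 3.63 and 2.25 CPM against 3.04, 4.63 and 4.89 CPM, with overlap. The 2 markers that were not higher were Vwf, the carrier of clotting factor VIII, with a log2 fold change of -0.03 (SE 0.20), and Gp9, a subunit of the platelet receptor for Vwf, with -0.42 (SE 0.36). The summed CPM of the 20 markers was 171 to 180 in the mutant libraries, 211 to 218 in the low-yield libraries and 170 to 180 in wildtype. Without low-yield replicate 3 the list had 16 genes higher, a median of 0.44 and 3 genes at an unadjusted p under 0.05. Over the 9 markers with a mean of 5 CPM or more the median was 0.21, with 8 higher. Of the 20, 3 passed the filter on low counts only with the low-yield libraries counted and 2 only with the other mutant libraries.

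Among the early progenitor genes (22 tested of 26), 15 were higher, the median was 0.12 and 1 had an unadjusted p under 0.05. The median was 0.05 without low-yield replicate 2 and 0.25 without mutant replicate 2. Over the members with a mean of 5 CPM or more it was 0.05. Of the 22, 2 passed the filter on low counts only with the low-yield libraries counted and 1 only with the other mutant libraries. The 1 gene at an unadjusted p under 0.05 was Hmga2, a chromatin protein of fetal stem cells. Its level was 24.0, 22.3 and 19.8 CPM in the mutant and 31.0, 36.8 and 23.0 CPM in the low-yield libraries. Replicate 3 of the low-yield group overlapped the mutant range, and the log2 fold change of 0.46 was 0.29 without low-yield replicate 2. Gata2, the factor of early progenitors that Gata1 replaces during erythroid maturation, was at 7.46, 7.07 and 7.36 CPM against 10.8, 13.1 and 6.47 CPM. Replicates 1 and 2 of the low-yield group were above every mutant library and replicate 3 below them all (log2 fold change 0.45, SE 0.26, or 0.71 without replicate 3 and 0.22 without replicate 2). Vim, an intermediate filament gene of immature and mesenchymal cells, was chosen after its values were seen. Its level was 38.4, 27.8 and 27.7 CPM against 79.0, 65.4 and 30.2 CPM. Low-yield replicates 1 and 2 were above every mutant library, but replicate 3 was within the mutant range. edgeR called Vim without low-yield replicate 3 (log2 fold change 1.21, adjusted p 0.0134).

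Granulocyte and eosinophil genes were also higher in the low-yield group. Of 25 listed, 20 were tested, 19 were higher and the median log2 fold change was 0.56, with 6 higher and 0 lower at an unadjusted p under 0.05. Ngp, a neutrophil granule protein, was at 0.739, 2.86 and 0.775 CPM in the mutant libraries and 4.12, 2.86 and 5.01 CPM in the low-yield libraries. Mutant replicate 2 was level with the lowest low-yield library. Lyz2, the lysozyme of myeloid cells, was at 0.538, 3.71 and 1.47 CPM against 4.28, 3.93 and 4.77 CPM, and again mutant replicate 2 was the highest of its group. Cebpe, the factor of granule formation, was at 1.48, 1.20 and 1.86 CPM against 4.83, 2.01 and 2.56 CPM (log2 fold change 0.99, SE 0.41, or 0.58 without low-yield replicate 1). Mpo, the myeloperoxidase of granulocyte precursors, was at 38.4, 116 and 45 CPM against 136, 74.6 and 76.8 CPM, with overlap and a log2 fold change of 0.53 (SE 0.49), which ranged from 0.20 without low-yield replicate 1 to 1.19 without mutant replicate 2. The summed level of the 20 genes was 159, 255 and 158 CPM in the mutant libraries, 434, 211 and 199 CPM in the low-yield libraries and 19.9 to 41.7 CPM in wildtype. Low-yield replicate 1 and mutant replicate 2 were the highest of their groups. Without low-yield replicate 1 the median was 0.27, with 13 genes higher and 2 at an unadjusted p under 0.05, and without mutant replicate 2 it was 0.89, so the size of this difference depended on these libraries.

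**Figure D2:**
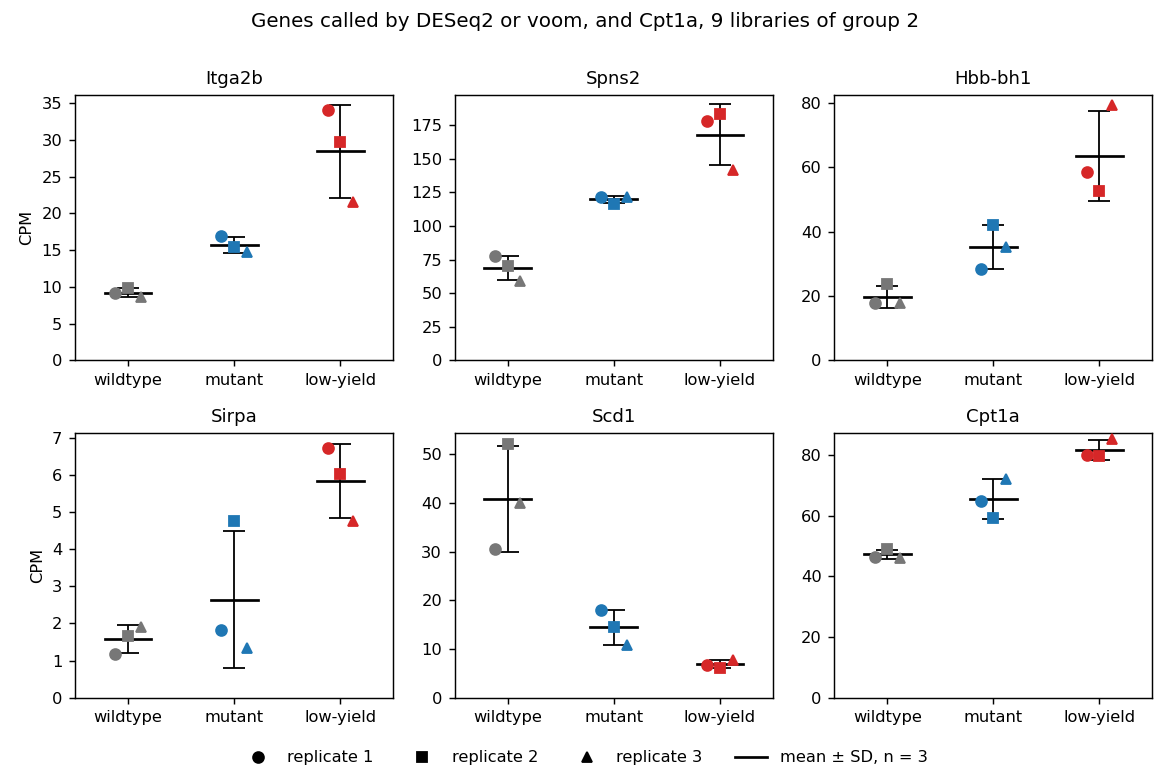
CPM (y axes, from 0) of Itga2b, Spns2, Hbb-bh1, Sirpa, Scd1 and Cpt1a in the wildtype, mutant and low-yield libraries of the second group; symbols are replicates 1 to 3 and bars are mean ± SD (n = 3). Itga2b, Spns2 and Hbb-bh1 step up from wildtype to mutant to low-yield, Scd1 steps down (30.4 to 52.1, 10.9 to 18.1 and 6.18 to 7.76 CPM), and Sirpa of mutant replicate 2 (4.75 CPM) reaches the low-yield range.

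Sirpa, the inhibitory receptor of myeloid cells for CD47, was called by voom (log2 fold change 1.84, adjusted p 0.0317) but not by edgeR (1.22, SE 0.35). Its level was 1.81, 4.75 and 1.34 CPM in the mutant libraries and 6.71, 6.03 and 4.74 CPM in the low-yield libraries, so the groups met at mutant replicate 2, without which the log2 fold change was 1.89. Other genes with the largest increases without overlap were Tnfrsf13b (log2 fold change 0.99), a receptor of B cells, and Ptprf (0.87), a receptor phosphatase. Gmfg (0.91), an actin regulator of blood cells, was among them too. So was Cdkn1c, an inhibitor of cyclin-dependent kinases, at 0.773, 2.66 and 2.35 CPM against 4.48, 3.07 and 3.52 CPM, with a log2 fold change of 0.92 that was 0.56 without mutant replicate 1. Med12l had 1.07, Exoc3l2 had 0.88 and the meiotic mismatch protein Msh4 had 1.18. Lrrc75aos2, an antisense gene called by DESeq2 and voom, was at 4.60, 5.95 and 3.67 CPM against 11.9, 10.2 and 7.52 CPM. The groups did not overlap, but use of strand in counting is not given in the sources used here, so reads of the gene on the other strand cannot be told apart from its own. Pecam1, an adhesion molecule of endothelium and blood progenitors, was at 3.56, 3.63 and 2.58 CPM against 5.50, 7.15 and 4.19 CPM, without overlap. Of the 8 endothelial and stromal markers tested of 18 listed, 7 were higher, with 1 higher (Pecam1) and 1 lower (Eng) at an unadjusted p under 0.05. Eng, the endoglin receptor, was at 17.0, 23.7 and 22.9 CPM against 17.7, 13.6 and 17.7 CPM (log2 fold change -0.37, SE 0.15). Their summed level was 26.0, 34.0 and 32.5 CPM against 30.8, 31.0 and 29.9 CPM, with overlap. Hepatocyte markers were higher for 19 of 19 tested, with a median of 0.80, which became 0.39 with 14 higher when mutant replicate 1 was left out and 1.38 when mutant replicate 2 was. Of these 19, 4 passed the filter on low counts only with the low-yield libraries counted, among them Krt8, the only one at an unadjusted p under 0.05, so no difference is read from these counts. Among 3 mast cell markers tested, Hdc, the enzyme that makes histamine, had an unadjusted p under 0.05, with a log2 fold change of 0.70 that was 0.37 without low-yield replicate 1 and 0.46 without mutant replicate 3. Its levels overlapped, at 3.93, 4.75 and 2.58 CPM against 8.63, 5.48 and 4.07 CPM. Of 8 macrophage markers tested, 4 passed the filter only with the low-yield libraries counted, and of the 8 endothelial and stromal markers 3 did.

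Many p53 target genes were lower in the low-yield libraries than in the other mutants. Of 43 listed, 41 were tested, 31 were lower and the median log2 fold change was -0.14, with 9 lower and 1 higher at an unadjusted p under 0.05. Over all genes the shares at that p were 1.45% lower and 1.74% higher. CPM did not overlap for 5 targets that were lower and 2 that were higher, beside 4.15% and 4.07% of all genes. No target was called after adjustment by edgeR. For each of the 9 genes lower at that p, every low-yield library lay above every wildtype library. Cdkn1a, the p21 inhibitor of cyclin-dependent kinases, was at 26.9, 36.2 and 50.8 CPM in the mutant libraries, 29.6, 18.4 and 20.2 CPM in the low-yield libraries and 2.72, 3.44 and 2.05 CPM in wildtype. Low-yield replicate 1 lay within the mutant range and the other two below it. The log2 fold change was -0.75 (SE 0.24, 95% interval -1.29 to -0.21, unadjusted p 0.0111), and -0.47 without mutant replicate 3. Against the shared wildtype libraries it was 3.82 in the mutants and 3.07 in the low-yield mutants. Cdkn1a overlaps 1 annotated gene on the other strand, as Spns2 does.

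Zmat3, a p53-induced RNA-binding protein, had the smallest p of the list. Its level was 95.8, 91.5 and 110 CPM in the mutant libraries, 86.8, 73.1 and 68.1 CPM in the low-yield libraries and 17.4 to 18.3 CPM in wildtype. The mutant and low-yield libraries did not overlap (log2 fold change -0.38, SE 0.10, unadjusted p 0.00178). Ccng1, the cyclin G1 that restrains p53 in turn, was at 302, 268 and 294 CPM against 247, 237 and 207 CPM, also without overlap. Eda2r, a receptor of the tumour necrosis factor family, was at 4.77, 6.99 and 5.89 CPM against 3.42, 3.41 and 2.52 CPM, and wildtype was at 0.231 to 0.646 CPM. Its log2 fold change was -0.93 (SE 0.25). Bbc3, the cell death protein PUMA, was at 15.6, 17.6 and 15.8 CPM against 13.2, 11.8 and 9.87 CPM, with low-yield replicate 3 the lowest of the 6. Phlda3, an inhibitor of Akt signalling, was at 75.5, 67.9 and 92.2 CPM against 69.5, 46.7 and 61.0 CPM and overlapped. Plk2 (-0.89), Tob1 (-0.35) and Ddit4 (-0.73) completed the 9 lower genes.

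Perp, an adhesion protein that p53 also induces, went the other way, at 0.739, 0.618 and 0.594 CPM in the mutant and 2.40, 1.49 and 0.935 CPM in the low-yield libraries. Mdm2, the ligase that closes the loop on p53, was at 62.3, 74.6 and 68.9 CPM against 63.1, 59.9 and 59.0 CPM (log2 fold change -0.18, SE 0.10). Low-yield replicate 1 was above mutant replicate 1, so Mdm2 overlapped. The 2 promoter windows that held a p53 consensus site are printed because their genes were among the 9 lower ones. They are the 250 bases before the start of Cdkn1a (first of 2 starts, chr17:29090729-29090978, plus strand) and of Ccng1 (chr11:40755287-40755536, minus strand), from RefSeq on GRCm38.p6. Capitals mark the 20-base site of the p53 consensus, searched with at most 1 mismatch, a motif that reads alike on both strands.
Cdkn1a promoter: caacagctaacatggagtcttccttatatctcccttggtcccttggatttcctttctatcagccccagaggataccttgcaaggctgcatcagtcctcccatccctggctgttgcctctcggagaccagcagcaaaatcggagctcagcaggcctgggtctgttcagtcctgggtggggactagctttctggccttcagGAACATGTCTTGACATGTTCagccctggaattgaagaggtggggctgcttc
Ccng1 promoter: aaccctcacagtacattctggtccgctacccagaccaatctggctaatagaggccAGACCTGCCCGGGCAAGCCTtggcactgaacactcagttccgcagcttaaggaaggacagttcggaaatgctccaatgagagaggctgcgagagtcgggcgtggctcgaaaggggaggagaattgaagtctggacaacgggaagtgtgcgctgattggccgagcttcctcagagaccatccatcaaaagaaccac
Such a site was in 25 of the 32851 windows (0.0761%). Of the 9 lower genes, 8 had a window in the RefSeq table, and 2 of these held the site. A match is a description only, and a window without one says nothing of p53 at that gene.

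The p53 list could be narrowed by calls in the first group of mice, which shares no library with the contrast. The list itself was drawn up with earlier results of these data known, so its direction here is a description and not independent support. In the first group of mice, edgeR called 814 genes higher (5.79%) and 952 lower (6.78%) in the mutant among 14048 tested, and 18 of the p53 targets were among the 814. In the second group, 17 of these 18 were lower in the low-yield than in the other mutant libraries, the median log2 fold change was -0.28 and 7 had an unadjusted p under 0.05. Their summed level was 1126, 1043 and 1222 CPM in the mutant libraries, 1041, 934 and 898 CPM in the low-yield libraries and 554 to 581 CPM in wildtype. Low-yield replicate 1 lay just below the lowest mutant library, and replicates 2 and 3 further down. Leaving out any 1 of the 6 libraries gave 15 to 18 genes lower and 6 to 10 at an unadjusted p under 0.05.

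**Figure D3:**
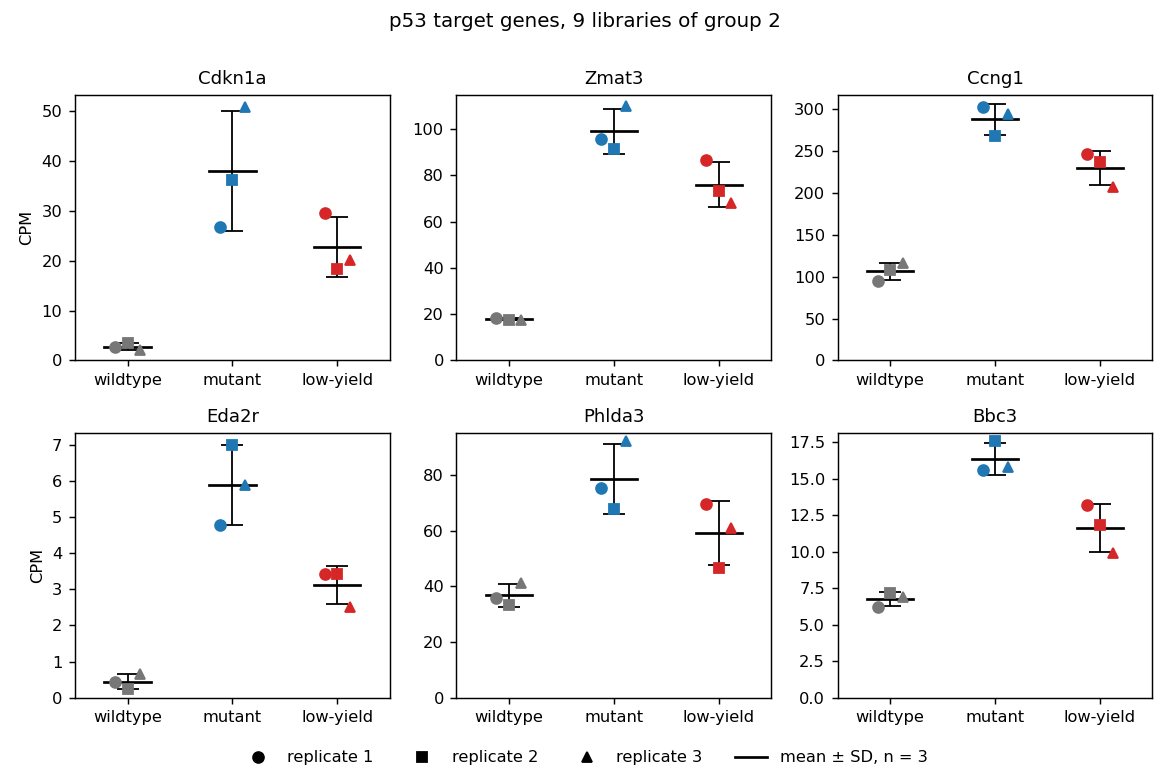
CPM (y axes, from 0) of the p53 targets Cdkn1a, Zmat3, Ccng1, Eda2r, Phlda3 and Bbc3 in the wildtype, mutant and low-yield libraries of the second group; symbols are replicates 1 to 3 and bars are mean ± SD (n = 3). Wildtype is lowest in each panel, mutant highest on average and low-yield between them, with Cdkn1a at 2.05 to 3.44, 26.9 to 50.8 and 18.4 to 29.6 CPM.

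Among lipid genes, a few members had an unadjusted p under 0.05 and the medians of the 5 lists lay between -0.08 and 0.03. With 1 library left out, the medians of the glycerolipid and sphingolipid lists took either sign. In fatty acid synthesis and desaturation, 24 of 29 genes were tested, 15 were lower, the median was -0.04 and 4 were lower at an unadjusted p under 0.05. These 4 were the desaturases Scd1, Scd2 and Fads2 and the regulator Srebf1. Scd1, the stearoyl-CoA desaturase at chr19:44394455-44407879 (minus strand), was at 18.1, 14.5 and 10.9 CPM in the mutant libraries, 6.75, 6.18 and 7.76 CPM in the low-yield libraries and 30.4, 52.1 and 40.1 CPM in wildtype. The 3 groups did not overlap. The log2 fold change between the mutant labels was -1.05 (SE 0.23, 95% interval -1.56 to -0.55, unadjusted p 5.92e-04), and DESeq2 called it (adjusted p 0.00293). Scd2, the desaturase with the neighbouring gene, was at 691, 814 and 606 CPM against 547, 564 and 594 CPM, without overlap. Fads2, the delta-6 desaturase of polyunsaturated fatty acids, was at 129, 128 and 116 CPM against 96.9, 101 and 109 CPM, also without overlap. Srebf1, the transcription factor of fatty acid synthesis, had a log2 fold change of -0.18 (SE 0.08).

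Of the enzymes that build the fatty acid chain, Fasn, the synthase itself, was at 932, 743 and 908 CPM in the mutant and 929, 866 and 812 CPM in the low-yield libraries (log2 fold change 0.01, SE 0.10, 95% interval -0.21 to 0.23). Acly and Acaca, which supply its acetyl and malonyl units, had -0.01 (SE 0.09) and -0.03 (SE 0.07), and Elovl6, which lengthens palmitate, had 0.14 (SE 0.10). Their difference from the desaturases was not tested. In cholesterol synthesis 28 of 28 genes were tested, 22 were lower, the median was -0.08 and 1 had an unadjusted p under 0.05. Without low-yield replicate 1 the median was -0.03, with 18 lower and 0 at that p. The 1 gene was Srebf2, the transcription factor of the pathway, at 216, 224 and 212 CPM against 188, 188 and 197 CPM, without overlap (log2 fold change -0.19, SE 0.07). Sqle, the squalene epoxidase of the pathway and a textbook target of Srebf2, had -0.08 (SE 0.09), within its error of 0. In the whole list, CPM did not overlap for 5 genes that were lower and 0 that were higher, beside 4.15% and 4.07% of all genes.

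Fatty acid oxidation had 29 tested genes with a median of -0.04, and 1, Cpt1a, was higher at an unadjusted p under 0.05. The number lower was 22, but 16 without low-yield replicate 2 and 17 without low-yield replicate 1. Cpt1a, which admits fatty acids to mitochondria, was at 65, 59.1 and 72.2 CPM in the mutant libraries, 80.0, 79.7 and 85.4 CPM in the low-yield libraries and 46.2 to 49.0 CPM in wildtype. The groups did not overlap, and the log2 fold change was 0.32 (SE 0.09). Among 37 glycerolipid genes, with a median of -0.03, Lpin1 was lower: 23.1, 28.1 and 25.5 CPM against 17.2, 15.5 and 15.8 CPM. Lpin1 makes diacylglycerol from phosphatidic acid, and its log2 fold change was -0.66 (SE 0.16, unadjusted p 6.85e-04), without overlap. The low-yield level was within the wildtype range of 13 to 21.4 CPM.

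The 30 sphingolipid genes tested had a median of 0.03, with 2 higher at an unadjusted p under 0.05. Spns2, the exporter of sphingosine-1-phosphate, was at 122, 117 and 121 CPM in the mutant libraries, 178, 183 and 142 CPM in the low-yield libraries and 59.4 to 77.4 CPM in wildtype. Each group was separate from the others, and low-yield replicate 3 was nearest to the mutants. The log2 fold change was 0.49 (SE 0.11, unadjusted p 4.24e-04), with an adjusted p of 0.0317 in voom. Sptlc1, a subunit of the enzyme that begins sphingolipid synthesis, had 0.27 (SE 0.11). B4galt6, which makes lactosylceramide, was at 4.03, 3.78 and 2.01 CPM against 4.73, 4.41 and 3.23 CPM, with overlap and a log2 fold change of 0.36 (SE 0.29), which was 0.06 without mutant replicate 3. Ppara, a regulator of fatty acid oxidation, did not pass the filter on low counts.

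Haemoglobin-related genes were divided. Hbb-bh1, an embryonic beta-like globin, was at 28.3, 41.9 and 35.2 CPM in the mutant libraries, 58.5, 52.6 and 79.1 CPM in the low-yield libraries and 17.8 to 23.7 CPM in wildtype. The groups did not overlap, and the log2 fold change was 0.86 (SE 0.18, 95% interval 0.47 to 1.24, unadjusted p 3.63e-04). Without low-yield replicate 3, the highest of the 6, it was 0.66. DESeq2 called it (adjusted p 0.00498), and so did edgeR with a term for the Y-linked libraries (0.84, adjusted p 0.0113). The other embryonic globins did not share this pattern in every library. Hbb-y was at 131, 168 and 132 CPM against 114, 107 and 332 CPM, and Hba-x at 137, 188 and 121 CPM against 142, 138 and 309 CPM. For both, low-yield replicate 3 was far above and the other two were within or below the mutant range. The adult alpha globins, Hba-a1 and Hba-a2 summed because their copies are near-identical, were at 1043, 1053 and 1318 CPM against 911, 757 and 1380 CPM. Hbb-bs and Hbb-bt summed gave a log2 ratio of means of -0.23, and the alpha pair -0.16.

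Late erythroid genes (38 tested of 38) were lower for 32, with a median log2 fold change of -0.14, and 1 was lower and 1 higher at an unadjusted p under 0.05. Mkrn1, a ubiquitin ligase, was the lower one, at 32.2, 35.8 and 39.2 CPM in the mutant and 27.7, 25.9 and 29.2 CPM in the low-yield libraries, without overlap. Car1, a red cell carbonic anhydrase, was the higher one (0.23, SE 0.10). In heme synthesis, 21 of 23 genes were lower with a median of -0.09, and Ppox, the protoporphyrinogen oxidase, was at 70.2, 77.1 and 72.2 CPM against 56.7, 59.2 and 68.5 CPM. Slc4a1, the band 3 anion exchanger of mature red cells, was at 120, 165 and 191 CPM against 108, 84.8 and 181 CPM. Low-yield replicate 3 was in the mutant range while replicates 1 and 2 lay below it. Alas2, the erythroid enzyme that starts heme synthesis, had a log2 fold change of -0.05 (SE 0.43), and Fn3k, a kinase that repairs glycated proteins, 0.01 (SE 0.94) at 0.116 to 0.407 CPM. Without low-yield replicate 3 the late erythroid list had 33 genes lower, a median of -0.25, and 15 lower at an unadjusted p under 0.05, beside the 2.96% of all genes in that setting. The heme list then had 23 of 23 lower, a median of -0.17 and 8 at that threshold. Without low-yield replicate 2 the difference was smaller in both lists, with medians of -0.08 (29 lower, 1 at that threshold) and -0.03 (18 lower, 0 at it). The heme median was also -0.03 without mutant replicate 3. Cldn13, an erythroid claudin, was at 38.2, 41.9 and 40.9 CPM against 27.1, 23.0 and 43.6 CPM. It was called by edgeR only without low-yield replicate 3 (log2 fold change -0.69, adjusted p 0.025).

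Several short noncoding RNAs were lower in the low-yield libraries, though not every annotated class. All 3 genes annotated as ribozymes and all 8 annotated as miscellaneous RNA that passed the filter were lower, with 3 and 4 at an unadjusted p under 0.05, and the 8 had a median of -0.87. These counts take each annotated entry singly, near-identical copies included. Of 9 entries annotated as small nucleolar RNA, 5 were higher and 4 lower, with a median of 0.61. The 5 higher ones were all copies of the U3 RNA (Rnu3a and Rnu3b1 to Rnu3b4), which takes part in cutting the ribosomal RNA precursor. Rnu3b1 to Rnu3b4 had the same values, and none of the 5 had an unadjusted p under 0.05. Of 4 entries annotated as small Cajal body RNA, 1 was higher and 3 lower. Rpph1, the RNA of ribonuclease P, which trims transfer RNAs (chr14:50807449-50807767, minus strand), was at 2734, 2938 and 2092 CPM in the mutant libraries, 947, 938 and 1464 CPM in the low-yield libraries and 2994, 3360 and 3874 CPM in wildtype. The 3 groups did not overlap. The log2 fold change was -1.21 (SE 0.20, 95% interval -1.67 to -0.76, unadjusted p 2.04e-04), and DESeq2 called it (adjusted p 0.00293). Scarna10, a small Cajal body RNA that the annotation lists as small nucleolar, was at 7.42, 8.03 and 5.45 CPM against 2.14, 1.89 and 4.12 CPM and was called by DESeq2 too (-1.35, adjusted p 0.00498). Rn7sk, the 7SK RNA that holds back transcription elongation, was at 1978, 1618 and 1804 CPM against 1072, 814 and 1382 CPM, without overlap. Rprl3 and Rn7s6 each had a log2 fold change of -1.03.

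Rmrp, the RNA of the ribonuclease that takes part in ribosomal RNA processing, and the 7SL RNAs of the signal recognition particle are each listed as copies that share sequence, so reads may have been split among them. Rmrp has entries at chr4:43492783-43493063 and chr4:43492788-43493058, both on the minus strand. Rn7s1 (chr12:69159295-69159594, plus strand) and Rn7s2 (chr12:69361182-69361481, minus strand) have identical transcripts in GENCODE M21. The Rmrp sequence is given, from the same transcripts, to show why the levels of these RNAs are given as sums. Capitals mark the 271 bases that its other entry shares.
Rmrp: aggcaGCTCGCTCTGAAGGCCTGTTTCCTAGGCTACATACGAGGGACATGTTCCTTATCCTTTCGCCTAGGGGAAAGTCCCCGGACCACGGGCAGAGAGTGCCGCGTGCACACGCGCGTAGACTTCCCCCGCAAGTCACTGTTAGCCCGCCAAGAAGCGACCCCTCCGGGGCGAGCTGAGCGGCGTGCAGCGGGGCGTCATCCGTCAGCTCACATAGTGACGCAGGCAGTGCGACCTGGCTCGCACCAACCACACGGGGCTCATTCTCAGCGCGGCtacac
The summed Rmrp level was 481, 357 and 369 CPM in the mutant libraries, 188, 118 and 260 CPM in the low-yield libraries and 445 to 632 CPM in wildtype. The summed 7SL level was 10690, 9771 and 8416 CPM against 4694, 3102 and 5971 CPM. Neither sum overlapped between the labels, and the log2 ratios of the means were -1.09 and -1.07. In both, low-yield replicate 2 was the lowest and low-yield replicate 3 the nearest to the mutants.

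Histone genes that are expressed with DNA replication, whose messages, like these short RNAs, are known to end without a poly(A) tail, were lower in the first and second low-yield libraries. Of 67 such genes 65 were tested, 61 were lower, the median log2 fold change was -0.30 and 5 were lower at an unadjusted p under 0.05. Their summed level was 31860, 25830 and 33557 CPM in the mutant libraries, 22060, 17559 and 34454 CPM in the low-yield libraries and 34268 to 40934 CPM in wildtype. Low-yield replicate 3 was the highest of the 6 and replicates 1 and 2 were the lowest. H4f16, an H4 gene, was at 926, 710 and 765 CPM against 330, 315 and 633 CPM, without overlap. Without low-yield replicate 3, 64 of 65 were lower, the median was -0.62, 53 were lower at an unadjusted p under 0.05 (2.96% of all genes in that setting) and 12 were called. Without low-yield replicate 2, 52 were lower, the median was -0.10 and 2 were lower at an unadjusted p under 0.05. The 44 cell cycle genes tested had a median of -0.01 and were lower for 26, or for 19 to 35 with 1 library left out. Transcripts of the mitochondrial genome, summed over 13 genes, were at 7809, 7852 and 4672 CPM in the mutant and 8644, 11331 and 4994 CPM in the low-yield libraries, so replicate 3 was the lowest of both labels. The only ribosomal RNA gene tested was at 711, 420 and 1036 CPM against 7344, 138 and 2566 CPM. The part of RNA preparation in these differences was not tested.

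**Figure D4:**
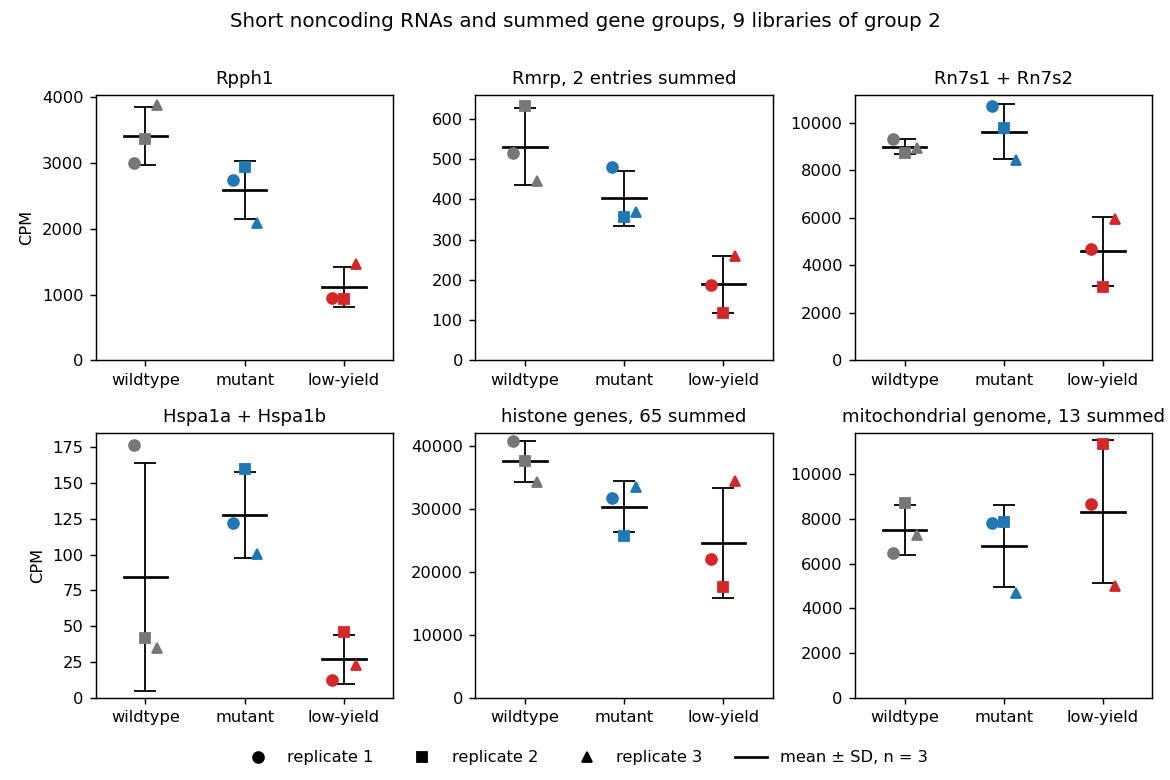
CPM (y axes, from 0) of Rpph1, summed Rmrp, summed 7SL RNA (Rn7s1 and Rn7s2), summed Hspa1a and Hspa1b, 65 histone genes and 13 mitochondrial genes in the libraries of the second group; symbols are replicates 1 to 3 and bars are mean ± SD (n = 3). The low-yield libraries lie below the other 2 groups for Rpph1, Rmrp and 7SL, whereas for histone genes low-yield replicate 3 (34454 CPM) lies with the other mutants.

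The inducible chaperone genes Hspa1a and Hspa1b, near-identical copies that were summed, were at 122, 160 and 101 CPM in the mutant libraries and 12.3, 45.9 and 22.7 CPM in the low-yield libraries, a log2 ratio of -2.24. Wildtype libraries were at 176, 42.1 and 34.5 CPM, so that wildtype replicates 2 and 3 resembled the low-yield libraries and replicate 1 the mutants. Hspa1b alone had a log2 fold change of -2.18 (SE 0.63, 95% interval -3.71 to -0.64). Of 22 chaperone and proteostasis genes tested, 17 were lower, the median was -0.07 and 4 were lower at an unadjusted p under 0.05. Beside Hspa1b these were Hsph1 (-0.29), Hspa8 (-0.25) and Hspa4l (-0.30), all cytosolic chaperones. Other named decreases without overlap were Pakap (-1.19), an entry that joins a paralemmin and a kinase anchoring gene, H3c14 (-0.96), a histone H3 gene, and Dusp8 (-0.94), a phosphatase of stress kinases.

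The 89 ribosomal protein genes tested had a median of 0.02, with 53 higher, a number that ran from 25 without low-yield replicate 3 to 78 without low-yield replicate 2, and the 1 at an unadjusted p under 0.05, Rps12l1, is a copy similar to Rps12. Of 50 ribosome biogenesis genes, 47 were higher, but the median was 0.07 and 0 had an unadjusted p under 0.05. Without mutant replicate 2 the median was 0.00 and 25 were higher. The integrated stress response (26 tested, median 0.04) had 1 such gene, Nupr1 (0.99), and the interferon response (15 tested, median -0.05, or 0.10 without mutant replicate 2) had 0.

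The genes that edgeR called in the first group's mutant were followed in the second group, as a description without a test. Of the 814 genes higher in that mutant, 805 were tested in the second group, where 527 were higher in low-yield than in other mutant libraries, with a median log2 fold change of 0.05. Of the 952 lower genes, 946 were tested, 657 were lower and the median was -0.06. At an unadjusted p under 0.05, 26 of the 805 were higher and 14 lower, and 42 of the 946 were lower and 5 higher. Over all 15024 genes tested, 7672 were higher and 7352 lower, and 1.74% were higher and 1.45% lower at that p. Among genes that differed at least 2-fold in the first group (a log2 value of 1), the medians were 0.15 and -0.15. Without low-yield replicate 3 the medians over all called genes were 0.09 and -0.11, and without low-yield replicate 2 they were 0.02 and -0.03. Without mutant replicate 2 they were 0.0092 and -0.05. Per library, the 946 lower genes had a centred median of -0.06 and -0.08 in low-yield replicates 1 and 2 and 0.06 in low-yield replicate 3, against 0.01 to 0.05 in the other mutants. Direction in this set therefore differed among the low-yield libraries, whereas 17 of the 18 p53 genes in the higher set went against its median.

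**Figure D5:**
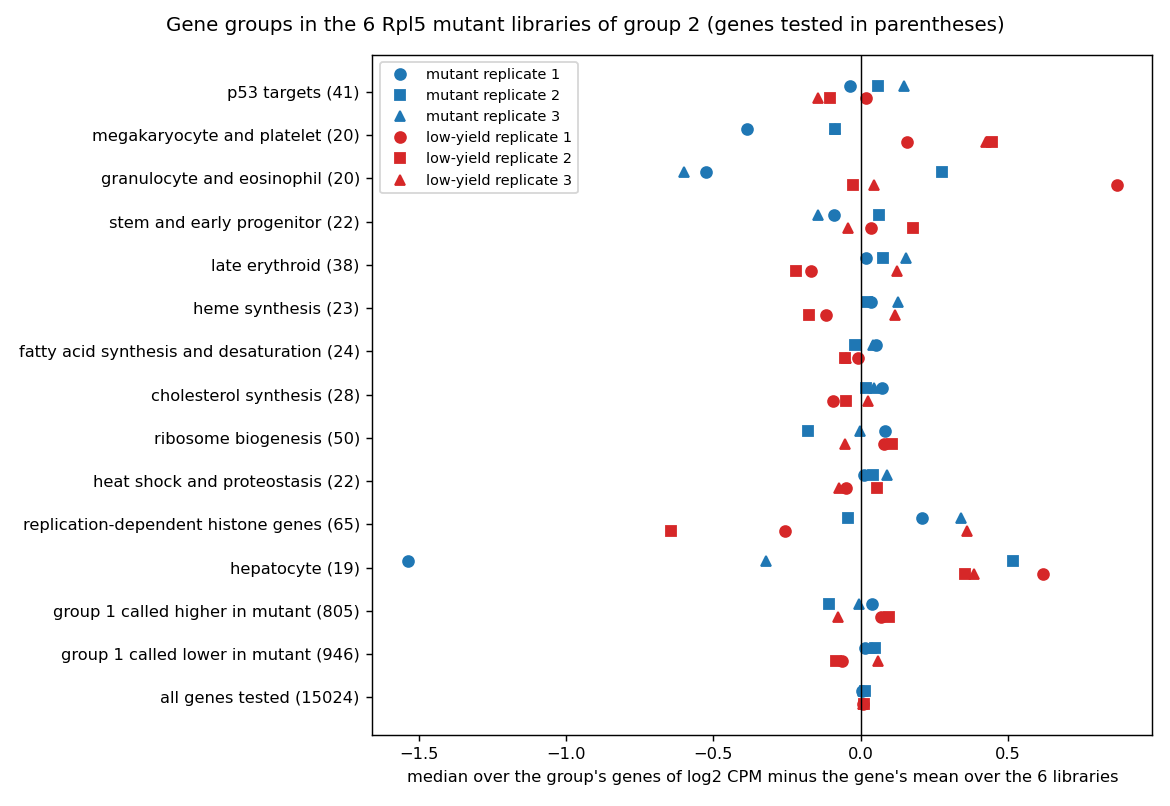
For each gene group (y axis, number of genes tested in parentheses), the median over its genes of log2 CPM minus the gene's mean over the 6 mutant libraries (x axis); blue symbols are mutant and red symbols low-yield replicates 1 to 3. Megakaryocyte genes lie to the right in all 3 low-yield libraries (0.16 to 0.45), whereas for late erythroid, heme and histone genes low-yield replicate 3 lies apart from replicates 1 and 2.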

How the data were processed

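Per the labels' protocols, RNA was extracted with RNeasy Micro and sequenced as 151 bp paired ends. The submitters' processing notes name cutadapt 2.3, FastQC 0.11.8, STAR 2.7.8a, RSEM 1.3.3, MultiQC 1.7 and GRCm38, with no role or order. The values the authors deposited are expected counts per gene, not normalised; strand use is not given in the sources used here. Libraries were grouped by title. Rounded counts of the 9 second-group libraries were fitted together in edgeR 4.0.16 (R 4.3.3: TMM, filterByExpr, robust quasi-likelihood, two-sided F test, Benjamini-Hochberg adjustment over 15024 of 55487 genes, threshold 0.05), with the contrast low-yield minus mutant. DESeq2 1.42.0 and limma 3.58.1 were alternatives. Reporter rows, which name no mouse gene, held 1 count and were left out. The procedure was tested on simulated data. Names and positions are from GENCODE M21, which held 55141 of the genes.

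Named genes were the 12 largest increases and 12 largest decreases with an unadjusted p under 0.05, no overlap and a mean of 2 CPM or more (predicted genes and pseudogenes passed over; 203 genes met these limits, 83 higher and 120 lower), genes called by any of the 3 tools, the smallest p of each list if under 0.05, and 12 fixed for the study. Some items are not reported here. Other genes were chosen after their values were seen. Members and lists were chosen with earlier results of these data known. Same-numbered mutant and low-yield libraries did not deviate together (r 0.063, -0.063 and 0.011), so the numbers were not taken as pairs in this contrast. Between same-numbered wildtype and mutant libraries r was 0.241, 0.173 and 0.0245. No 2 libraries of a label agreed within sampling noise. The biological coefficient of variation was 19.9%.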

Additional observations from a re-analysis of the deposited data

How the results depend on the processing

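edgeR called 0 genes in the main setting and in 16 alternatives, and DESeq2 called 6, voom with quality weights 4, and a term for the Y-linked libraries, chosen after seeing the data, 1. Leaving out 1 library at a time gave 0 to 22 calls, with 22 only without low-yield replicate 3. Counts at an unadjusted p under 0.05 were 1537 with voom, 255 at a mean CPM of at least 5, and 310 to 947 with 1 library left out. A replicate block gave 0 calls and 630 genes at that p. The numbers did not pair the mutant with the low-yield libraries. The medians of the first group's higher and lower genes were 0.15 and -0.15 over genes that differed at least 2-fold there. Log2 fold changes near 0 changed sign: Fn3k was at -0.56 with voom, -0.019 with the Y-linked term and -0.78 to 0.44 with 1 library left out, Rpl5 at -0.017 and -0.072 to 0.11, Alas2 at -0.31 to 0.067 and Kit at -0.0049 to 0.14. Itga2b ranged from 0.71 to 1.03, Scd1 from -1.24 to -0.86, Cdkn1a from -0.98 to -0.47 and Rpph1 from -1.46 to -1.10. The cause of these shifts was not tested. The median SE was 0.162, and genes near 1 CPM rest on few reads.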

Other observations

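Some genes that were not described above also differed between the labels. They were picked after their values were seen, and edgeR called none of them with all libraries. Ppard, a nuclear receptor for fatty acids, was at 45, 45.2 and 52.2 CPM in the mutant libraries and 36.5, 36.9 and 36.1 CPM in the low-yield libraries, a log2 fold change of -0.38 (SE 0.10). Igfbp4, which binds insulin-like growth factors, was at 5.48, 10.8 and 6.04 CPM against 18.1, 13.4 and 10.2 CPM, where low-yield replicate 3 overlapped mutant replicate 2. Actn1, an actin cross-linker, was at 5.11, 4.79 and 5.65 CPM against 10.2, 9.13 and 7.07 CPM (0.74, SE 0.21). Coro1a, an actin regulator of blood cells, was at 5.04, 10.1 and 5.65 CPM against 15, 10.5 and 11.2 CPM (0.84, SE 0.24). Slc26a1, a sulfate transporter, was at 81.0, 99.6 and 80.2 CPM against 60.7, 50.8 and 83.7 CPM and was called by edgeR when low-yield replicate 3 was left out (-0.64, adjusted p 0.0484).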
